A study of Mus musculus with 10 samples.

Results

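The nuclear genes of respiratory complexes II to V were followed in male mouse embryonic stem cells (mESCs) kept under 2 culture methods. Genes were taken by name from the table of expression values: Sdha, Sdhb, Sdhc and Sdhd of complex II, names that begin with Uqcr and Cyc1 for complex III, Cycs for cytochrome c, names from Cox4 to Cox8 for complex IV, and names that begin with Atp5 for complex V. This gave 50 of 25965 features, with 4 in complex II, 9 in complex III, 1 for cytochrome c, 19 in complex IV and 17 in complex V. One further name, the pseudogene Atp5l-ps1, was left out. A rule by name also takes in genes that are not subunits. Cox4nb is the older name of Emc8, which belongs to a membrane protein complex of the endoplasmic reticulum and lies next to Cox4i1, and Cox7a2l, Atp5s and Atp5sl are related by sequence or name rather than being core parts of their complex.

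The respiratory chain sits in the inner mitochondrial membrane. Complex II (succinate dehydrogenase) passes electrons from succinate to ubiquinone, complex III passes them on to cytochrome c, and complex IV (cytochrome c oxidase) hands them to oxygen. Complexes III and IV move protons across the membrane, and complex V (ATP synthase) uses their return to make ATP. Complex II is encoded entirely in the nucleus, whereas complexes III, IV and V also contain subunits made from mitochondrial DNA. All 13 mitochondrially encoded mRNAs are listed at 0 reads in every library of the table and were not analysed here. Naive mESCs use both respiration and glycolysis, and the balance moves towards glycolysis as cells leave the naive state.

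The 10 RNA-seq libraries come from 2 C57BL/6 male lines that had been derived under Keniry2022 conditions and were split at passage 0 (p0). Each line was then grown by both methods and sampled after 10 and 20 passages (p10, p20). The medium throughout was 2i/LIF, a serum-free medium with inhibitors of MEK and GSK3 and the cytokine LIF. Under Keniry2022 the cells float in plates without an attachment surface and are split every day at higher density and in more medium. Under Mulas2019 they grow on gelatin and are split every 48 h, so that p20 Keniry2022 and p10 Mulas2019 are matched in days. Method therefore combines attachment, density, medium volume and interval, and these cannot be told apart. Each group has 2 libraries, 1 per line, and the 4 libraries of a method are 2 lines at 2 passages, so p-values measure the spread between these libraries. Expression is given as log2 RPKM (reads scaled by exon length and library total, on a log2 scale), so levels can be compared between genes. These are bulk RNA values, in which fewer cells of a type and less RNA per cell cannot be told apart.

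Library totals lay between 24053996 and 30236823 reads, and tested members had 70 to 73726 reads in a library. All 10 naive mESC markers examined were tested, and their summed level was 3200 to 3450 RPKM under Keniry2022, 2930 to 3100 under Mulas2019 and 3900 to 5580 at p0. Pou5f1 (0.40), Zfp42 (0.30), Nanog (0.18), Dppa5a (0.10) and Utf1 (0.98) were higher under Keniry2022 on the log2 scale, and Klf4 was lower (-0.40), but with quantile normalisation 3 of the 10 were called higher and 3 lower. Summed levels stayed at or below 1.82 RPKM for 6 primitive endoderm markers, 8.77 for 6 trophoblast markers and 1.04 for 6 fibroblast markers. Of the trophoblast markers, Eomes (-0.40) and Krt18 (-1.13) were lower under Keniry2022, and the defining marker Cdx2 stayed at or below -1.15 in every library. The part of these markers in the results below was not tested. The p0 libraries stood apart from each other in the genes described here, and results that use p0 are therefore given with and without each of them. The Y-linked gene Ddx3y was low in replicate 1 (-3.68 to -1.76) and high in replicate 2 (3.87 to 4.69) of every group except p20 Keniry2022, where it was at 4.32 in replicate 1 and -2.45 in replicate 2. The numbers thus go with the lines in the other groups and appear crossed in that group. The study reports that a line lost its Y chromosome during derivation, before the methods were compared. At p0 Ddx3y was already at -1.76 in replicate 1 and at 4.69 in replicate 2. The part of Y chromosome loss in the spread between the p0 libraries, or in the other results, was not tested.

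Promoter sequence was examined first, because genes of this kind share binding motifs for nuclear respiratory factor 1 (NRF1) and for the ETS factor GABP. RefSeq promoters (build GRCm38.p6, 250 bases before to 50 after the start, both strands, overlapping matches counted) matched 37 of the 50 members. The NRF1 core GCGCANGCG occurred in 11 of the 37 (29.7%) and in 6.2% of 32817 promoters. The ETS core CCGGAAG occurred in 11 (29.7%) against 8.9%, and AAGATGGCG, bound by YY1, in 2 (5.4%) against 1.4%. At least 1 of these 3 was present in 18 (48.6%) against 14.8%. The ERR core AAGGTCA was found in 5 (13.5%) against 4.7%, and the GC box GGGCGG in 14 (37.8%) against 35.6%. Median GC content was 56.0% in members and 52.7% in all promoters. The 150 bases before the start are shown for 5 genes that differed between the methods and hold such a motif there, and for Cox7b2, which showed the widest difference and holds none of the 3. Capitals mark the NRF1 and ETS cores on either strand, and each run reads in the direction of transcription. All 6 lie on the minus strand, at chr9:50603850-50603999 (Sdhd), chr10:80406822-80406971 (Uqcr11), chr4:116075071-116075220 (Uqcrh), chr7:30626115-30626264 (Cox6b1), chr5:108434400-108434549 (Atp5k) and chr5:71548206-71548355 (Cox7b2).
Sdhd: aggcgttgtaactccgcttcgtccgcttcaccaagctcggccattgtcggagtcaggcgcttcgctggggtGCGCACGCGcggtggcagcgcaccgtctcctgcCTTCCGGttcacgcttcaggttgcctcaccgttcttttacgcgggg
Uqcr11: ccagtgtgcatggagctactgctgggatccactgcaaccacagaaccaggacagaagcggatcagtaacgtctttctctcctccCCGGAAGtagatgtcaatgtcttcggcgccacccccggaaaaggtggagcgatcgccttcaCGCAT
Uqcrh: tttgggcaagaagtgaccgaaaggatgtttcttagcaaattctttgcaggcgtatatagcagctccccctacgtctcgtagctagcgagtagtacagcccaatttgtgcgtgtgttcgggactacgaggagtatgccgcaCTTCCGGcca
Cox6b1: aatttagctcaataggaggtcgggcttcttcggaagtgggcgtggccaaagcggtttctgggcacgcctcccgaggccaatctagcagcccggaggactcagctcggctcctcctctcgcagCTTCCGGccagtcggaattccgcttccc
Atp5k: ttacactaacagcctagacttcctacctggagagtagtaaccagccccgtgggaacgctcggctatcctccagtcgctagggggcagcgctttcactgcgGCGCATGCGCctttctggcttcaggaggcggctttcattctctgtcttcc
Cox7b2: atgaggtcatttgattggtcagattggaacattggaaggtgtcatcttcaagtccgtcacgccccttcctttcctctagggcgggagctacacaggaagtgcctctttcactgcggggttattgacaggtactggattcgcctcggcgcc

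In Sdhd an NRF1 core precedes an ETS core, in Uqcr11 an ETS core precedes an NRF1 core that runs across the start site (its last 5 capitals), and in Atp5k overlapping NRF1 cores on both strands form 1 run. Uqcrh and Cox6b1 hold an ETS core close to the start. A match of this kind is a description of letters. The promoter of Uqcrc1, which did not pass the pooled test between the methods described below, also holds NRF1 cores. The part of these motifs in the differences between the methods was not tested.

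Transcripts of complexes II to V were, as a group, somewhat higher under Keniry2022 than under Mulas2019. Of 44 members that passed the filter on low values, 31 were called higher and 0 lower when p10 and p20 were pooled (limma, adjusted p under 0.05, 4 against 4 libraries). The share of all tested features called higher was 25.9%, and 25.5% were called lower. The median log2 difference of the members was 0.19, against -0.003 over all 11654 features tested, and 37 members had a positive value. In 26 members the lowest Keniry2022 library exceeded the highest Mulas2019 library, an arrangement found in 23.1% of all features tested. In the other 18 the libraries of the methods overlapped. In a model of all 10 libraries, which takes part of its spread from p0, the count fell from 31 to 1 (Cox7b2), where 8.65% of all features were called higher. At p0 the mean over the tested members was 6.95 in replicate 1 and 6.28 in replicate 2, which were above the 4 Keniry2022 libraries (6.14 to 6.19) and the 4 Mulas2019 libraries (5.99 to 6.01).

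**Figure D1:**
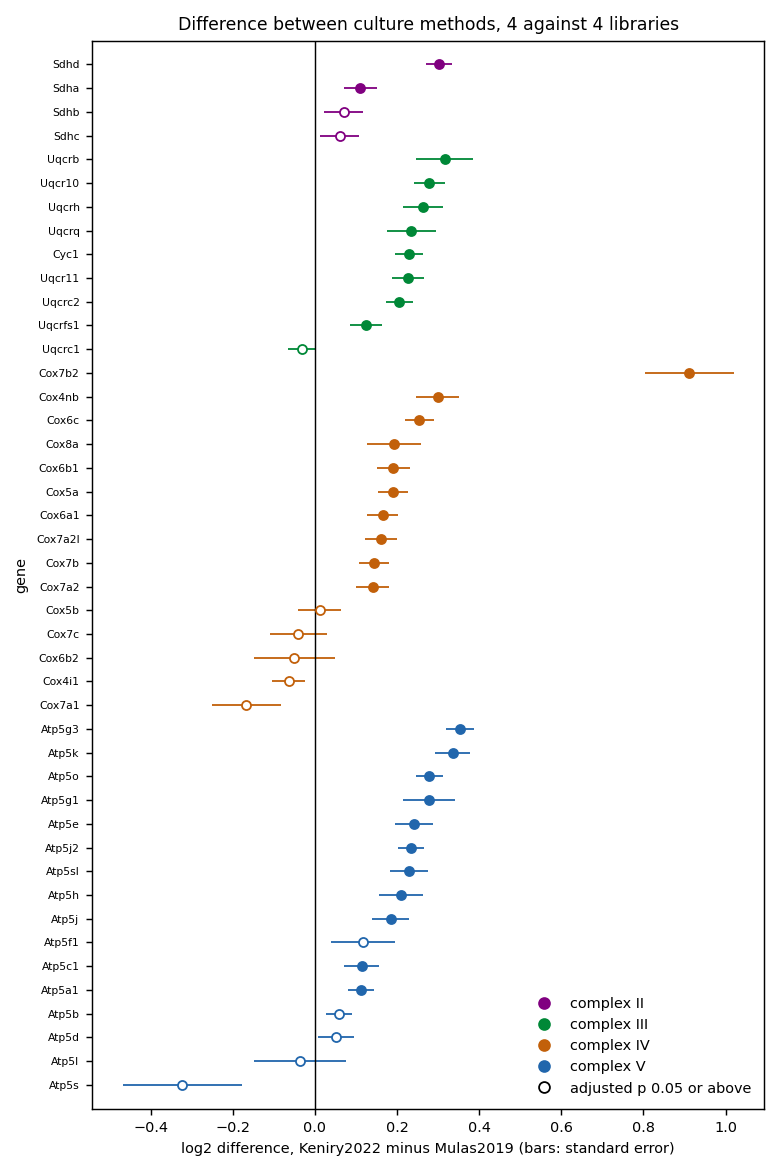
Log2 difference between Keniry2022 and Mulas2019 (x axis, positive where Keniry2022 was higher) for each of the 44 tested genes (y axis), coloured by complex, with bars of 1 standard error; filled points passed an adjusted p of 0.05 in limma. Filled points lie to the right of 0 in every complex, Cox7b2 is farthest right at 0.91, and Atp5s (-0.32) and Cox7a1 (-0.17) are farthest left and open.

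These differences depended on how the libraries were scaled. With a correction for exon length in GENCODE, 20 members were called higher and 3 lower (Cox7a1, Cox4i1 and Atp5s), with 25.3% of all features called higher and a member median of 0.10. With the exon lengths recovered from the table itself, 20 were called higher and 4 lower (the same 3 and Uqcrc1), against 24.5%. With quantile normalisation, 17 were called higher and 3 lower (Cox7a1, Cox4i1 and Uqcrc1), against 23.1%, and the member median was 0.05. With voom on recovered reads, 31 were called higher and 0 lower, against 25.8%. In every alternative to the pooled fit, except 1 model that adds the p0 libraries, 15 members were called higher, against 19.2% of the features tested in all of them. These were Sdhd, Uqcr10, Uqcrb, Uqcrh, Cyc1, Cox4nb, Cox6c, Cox7b2, Atp5e, Atp5g1, Atp5g3, Atp5j2, Atp5k, Atp5o and Atp5sl. Limits of the Uqcrb, Cox6c and Atp5o features are given with their complexes.

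In complex II, 2 of 4 genes were called higher under Keniry2022. Sdhd, a membrane anchor that carries part of the ubiquinone site, was at 7.13 and 7.12 in the p10 Keniry2022 libraries, 7.16 and 7.07 at p20, 6.78 and 6.80 under Mulas2019 at p10 and 6.84 and 6.83 at p20. The methods did not overlap, and the log2 difference was 0.30 (SE 0.032, limma adjusted p = 9.04e-05), a fold of 1.23. Sdha, the flavoprotein that oxidises succinate, ran from 6.51 to 6.59 under Keniry2022 and from 6.34 to 6.49 under Mulas2019, a difference of 0.11 (limma adjusted p = 0.0397). Its call ended with the replicate block (limma adjusted p = 0.054, or 0.0563 with the p20 Keniry2022 numbers crossed), and its value turned to -0.01 under quantile normalisation. Sdhb, the iron-sulfur subunit, differed by 0.07 (SE 0.047) and Sdhc, the other anchor, by 0.06 (SE 0.048), and their libraries overlapped. The mean over the 4 genes was 6.04 ± 0.021 under Keniry2022 and 5.90 ± 0.021 under Mulas2019 (SD, n = 4).

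In complex III, 8 of 9 genes were called higher under Keniry2022. The mean level was 6.72 ± 0.028 under Keniry2022 and 6.51 ± 0.013 under Mulas2019 (SD, n = 4), the widest gap of the 4 complexes. Uqcr10, a small subunit beside cytochrome c1, was at 7.80, 7.73, 7.74 and 7.70 under Keniry2022 and at 7.52, 7.44, 7.49 and 7.41 under Mulas2019. All Keniry2022 values lay above, and the difference was 0.28 (SE 0.037, limma adjusted p = 0.000258). Uqcrh, the hinge protein that helps cytochrome c1 meet cytochrome c, ran from 6.49 to 6.67 against 6.20 to 6.34, a difference of 0.26 (SE 0.049). Uqcrq, a small membrane subunit, ran from 5.80 to 6.03 against 5.55 to 5.77, a difference of 0.24 (SE 0.059), and its call ended under quantile normalisation. The gap between these ranges was narrower than in Uqcr10.

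Cyc1, the haem-bearing cytochrome c1, was at 7.71, 7.66, 7.60 and 7.62 under Keniry2022 and 7.39, 7.46, 7.42 and 7.40 under Mulas2019. The difference was 0.23 (SE 0.034, limma adjusted p = 0.000474). Uqcr11 (0.23), Uqcrc2 (0.21), Uqcrb (0.32) and Uqcrfs1 (0.13), the Rieske iron-sulfur protein, were also called higher. In Uqcrb and Uqcrfs1 the libraries overlapped, and Uqcrfs1 turned to -0.01 under quantile normalisation. Uqcrc2 lost its call under quantile normalisation and Uqcr11 with recovered lengths. Exons of Uqcrb overlap Gm10767 and those of Uqcrc2 overlap Pdzd9, so their reads may be shared. Uqcrc1, a core protein that pairs with Uqcrc2, went the other way: it ran from 7.65 to 7.70 under Keniry2022 and from 7.66 to 7.76 under Mulas2019, a difference of -0.03 (SE 0.033) that did not pass the test.

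Cycs, the single gene taken for somatic cytochrome c, was listed at -0.98 to 0.73 with 52 to 136 reads a library and did not pass the filter. Of the 75-base stretches in its GENCODE transcripts, 23.9% also occur in transcripts of 5 other genes, 4 of them pseudogenes. The listed value of Cycs may therefore not stand for the gene's true level. How the authors' software treated reads with several alignments is not given in the sources used here.

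In complex IV, 10 of 15 tested genes were called higher under Keniry2022. The mean level was 6.38 ± 0.025 against 6.23 ± 0.051 (SD, n = 4). Cox7b2, a paralogue of Cox7b known from testis, showed the widest difference of all 44 members. It was at 3.67, 3.75, 3.74 and 3.91 under Keniry2022 and at 2.69, 2.77, 3.22 and 2.73 under Mulas2019, where p20 replicate 1 was the high value. At p0 it was at 4.93 and 3.75, so p0 replicate 2 lay within the Keniry2022 range. The log2 difference was 0.91 (SE 0.11, limma adjusted p = 0.000154), a fold of 1.88, on 85 to 398 reads a library. Cox7b2 lies on chr5:71442824-71548205 (mm10). Its common partner Cox7b was far more abundant, at 6.60 to 6.73 under Keniry2022 and 6.50 to 6.54 under Mulas2019, and differed by 0.14 (SE 0.036), which became 0.02 with either length correction and 0.007 with quantile normalisation, where it was not called.

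The next differences in complex IV by size were below 0.5 on the log2 scale. Cox6c was at 4.93, 4.94, 4.94 and 4.86 under Keniry2022 and 4.63, 4.70, 4.68 and 4.65 under Mulas2019. The difference was 0.25 (SE 0.036, limma adjusted p = 0.00034), with the limit that its exons overlap those of Vps13b. Cox6b1, which sits at the dimer interface, ran from 7.61 to 7.70 against 7.38 to 7.54, a difference of 0.19 (SE 0.041). With either length correction it was 0.06 (limma adjusted p = 0.26 and 0.27) and with quantile normalisation 0.05 (0.39). Cox4nb, not a subunit, ran from 4.89 to 5.05 against 4.58 to 4.78, a difference of 0.30 (SE 0.052). Its neighbour Cox4i1 ran from 8.60 to 8.73 against 8.70 to 8.81, a difference of -0.06 (SE 0.040) that did not pass the test, and it was called lower with either length correction and with quantile normalisation. Cox5a (0.19), Cox6a1 (0.16), Cox7a2 (0.14), Cox7a2l (0.16) and Cox8a (0.19) were called higher, and of these Cox6a1 and Cox7a2 turned to -0.02 under quantile normalisation. All 5 lost their call with quantile normalisation and with recovered lengths. Cox5b (0.01), Cox7c (-0.04) and Cox6b2 (-0.05) did not pass the test.

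Several complex IV subunits exist as a common and a tissue-restricted form, and the levels of these forms were far apart. Cox4i1 was at 8.60 to 9.29 over the 10 libraries, whereas Cox4i2, the form known from lung, had 4 to 24 reads. Cox6a1 was at 7.22 to 8.52 and its heart and muscle partner Cox6a2 had 0 to 17 reads. Cox8a was at 8.45 to 9.72, while Cox8b, another heart and muscle form, had 0 or 1 read and Cox8c, known from testis, 0 to 9. A count of 0 reads allows up to 3, for counting error only. The restricted form was not low in every family. Cox6b2, known from testis, was at 5.44 to 6.42 beside 7.38 to 8.50 for Cox6b1. Cox7a1, the heart and muscle form, was at 5.43 to 6.60 beside 7.11 to 8.76 for Cox7a2. Cox7a2l, which helps to join complexes III and IV, was at 6.06 to 6.69.

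**Figure D2:**
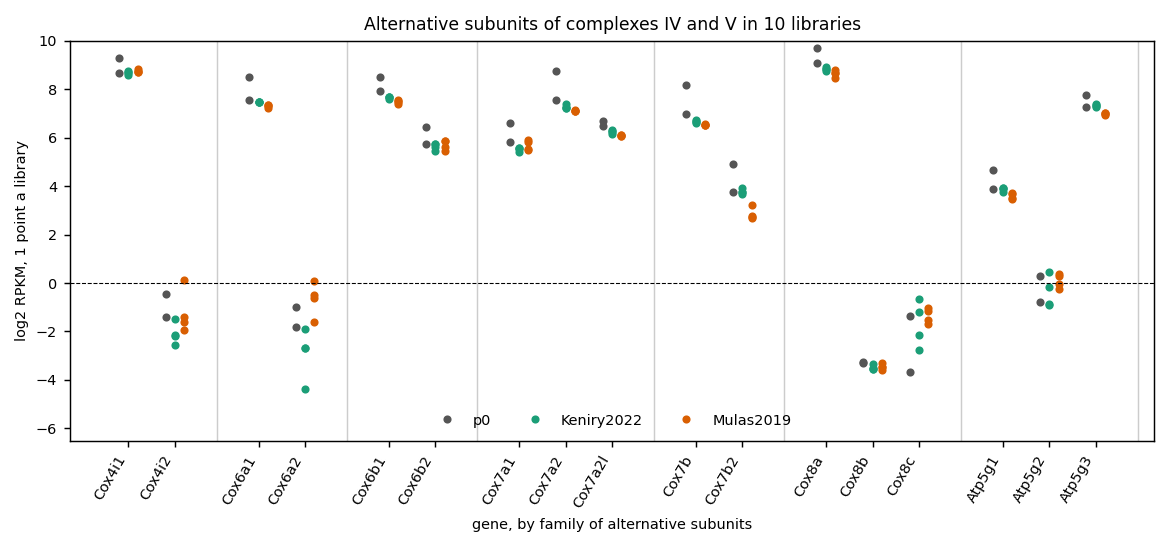
Log2 RPKM (y axis) of alternative subunits of complexes IV and V, with 1 point for each library and colours for p0, Keniry2022 and Mulas2019; the dashed line marks a log2 value of 0. Cox4i2, Cox6a2, Cox8b, Cox8c and Atp5g2 sit near or below the line, whereas Cox6b2, Cox7a1 and Cox7b2 sit well above it.

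Cox7a1 was at 5.56, 5.43, 5.58 and 5.54 under Keniry2022 and at 5.51, 5.55, 5.82 and 5.90 under Mulas2019, so only the p20 Mulas2019 libraries stood above the rest, and the pooled difference was -0.17 (SE 0.084, limma adjusted p = 0.12). Cox6b2 was at 5.73, 5.75, 5.62 and 5.47 under Keniry2022 and at 5.44, 5.61, 5.86 and 5.86 under Mulas2019. Keniry2022 was higher at p10 and lower at p20. Cox6a2, whose exons overlap those of Itgad, had 5, 3, 0 and 3 reads under Keniry2022 and 17, 13, 13 and 6 under Mulas2019. Every Keniry2022 value was lower, but the gene did not pass the filter. The p0 libraries held 8 and 5 reads, the first within the Mulas2019 range and the second equal to the highest Keniry2022 count.

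In complex V, 11 of 16 tested genes were called higher under Keniry2022, and the mean level was 5.67 ± 0.054 against 5.52 ± 0.021 (SD, n = 4). The 3 genes of the c subunit encode the same mature protein of the rotor ring with different import signals. Atp5g3 was the most abundant of them, at 7.28, 7.39, 7.36 and 7.32 under Keniry2022 and 6.95, 7.00, 6.96 and 7.01 under Mulas2019. The difference was 0.35 (SE 0.034, limma adjusted p = 6.19e-05), a fold of 1.28. Atp5g1 was at 3.92, 3.76, 3.86 and 3.91 against 3.52, 3.65, 3.71 and 3.46, a difference of 0.28 (SE 0.063, limma adjusted p = 0.00452). Both thus stood higher in all 4 Keniry2022 libraries. Atp5g2 had only 7 to 17 reads and was not tested. Of the 75-base stretches in its GENCODE transcripts, 35.8% occur in other transcripts. Its feature has 441 bases against 1675 in GENCODE, so the share for the feature itself may differ.

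Among the stalk and membrane parts, Atp5k (subunit e, at the dimer interface) was at 6.23, 6.23, 6.27 and 6.23 under Keniry2022 and at 5.85, 5.96, 5.82 and 5.99 under Mulas2019. The difference was 0.34 (SE 0.043, limma adjusted p = 0.000216). Atp5o (OSCP, which ties the head to the outer stalk) was at 6.13, 6.13, 6.19 and 6.16 against 5.88, 5.82, 5.91 and 5.88, a difference of 0.28 (SE 0.033). Its exons overlap those of Donson, and 33.6% of the 75-base stretches in its GENCODE transcripts occur in other transcripts. The Atp5o feature spans chr16:91684398-91931687 and also covers Cryzl1 and Itsn1, among others. Its recovered length was 2259 bases, against 530 in the GENCODE gene matched to it. Its values may therefore not be those of Atp5o alone. Atp5e (0.24), Atp5j2 (0.23), Atp5sl (0.23), Atp5h (0.21) and Atp5j (0.18), parts of the stalks and the membrane sector apart from Atp5sl, were also called higher, with the limit that exons of Atp5j overlap those of Gabpa. Atp5h lost its call with either length correction and Atp5j with quantile normalisation. Of the 75-base stretches in GENCODE transcripts of Atp5h, 14.6% also occur in the pseudogene Gm10250.

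Atp5b, the catalytic beta subunit, was at 9.20 to 9.23 under Keniry2022 and 9.11 to 9.21 under Mulas2019, a difference of 0.06 (SE 0.032) that did not pass the test. Atp5a1, the alpha subunit, ran from 9.02 to 9.09 against 8.91 to 8.98, a difference of 0.11 (limma adjusted p = 0.015), and Atp5c1, the gamma subunit, differed by 0.11. Both turned below 0 under quantile normalisation, at -0.02 and -0.04, and the replicate block ended the call of Atp5c1 (limma adjusted p = 0.0517, or 0.0646 with the numbers crossed). Of the remaining genes, Atp5f1 (0.12), Atp5d (0.05), Atp5l (-0.04) and Atp5s (-0.32) did not pass the test. The value of Atp5l, a membrane subunit, is uncertain. Of the 6512 stretches of 75 bases in its GENCODE transcripts, 401 (6.2%) occur in transcripts of other genes, pseudogenes among them. Its feature has only 511 bases against 6443 in GENCODE, so the share for the feature itself may differ. Exons of Atp5d overlap Dos and those of Atp5f1 overlap Wdr77.

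**Figure D3:**
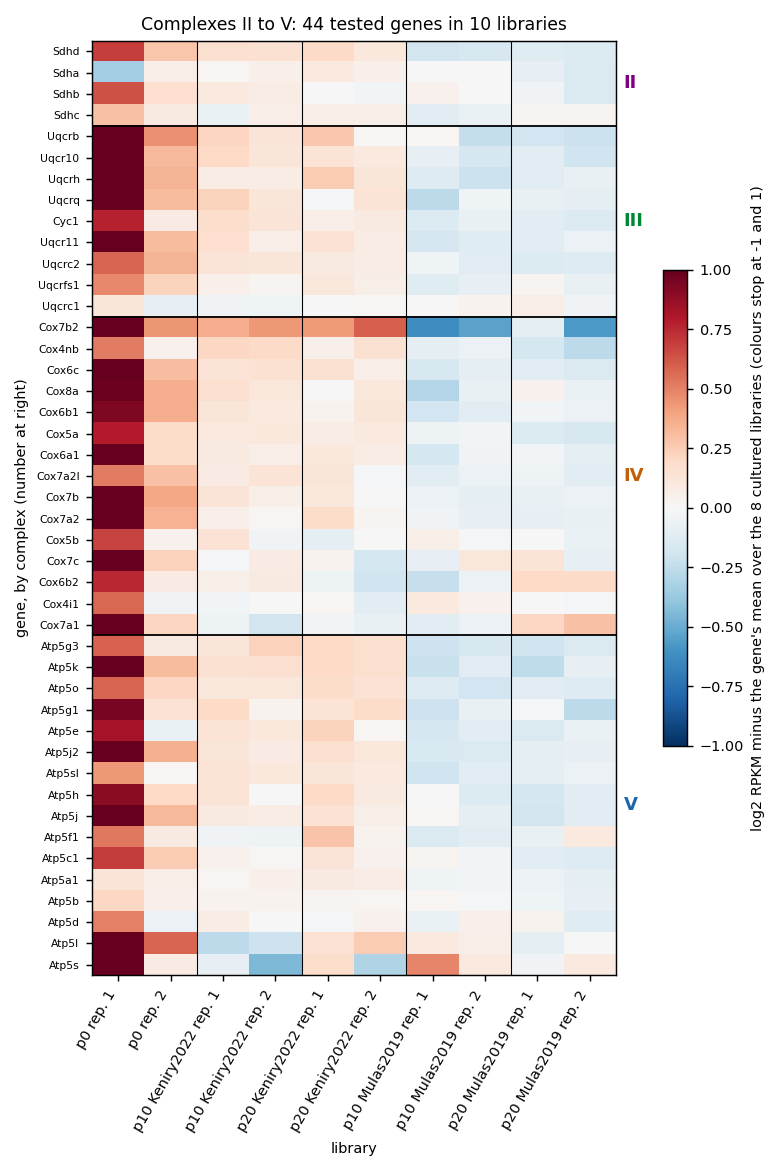
Log2 RPKM of the 44 tested genes (rows, grouped by complex and ordered by the difference between methods) in the 10 libraries (columns), as the difference from each gene's mean over the 8 p10 and p20 libraries; colours stop at -1 and 1. The Keniry2022 columns are mostly red and the Mulas2019 columns mostly blue, and p0 replicate 1 is red in every row but Sdha.

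At each passage taken alone, the medians were close to the pooled one but no member passed the test in the model of all 10 libraries. The member median was 0.18 at p10, 0.19 at p20 and 0.18 between p20 Keniry2022 and p10 Mulas2019, which are matched in days. Members called numbered 0 in each of these limma comparisons, where 8.53%, 2.15% and 6.43% of all features were called. At an unadjusted p under 0.05 there were 4, 3 and 4 members, against 27.0%, 19.4% and 23.5% of all features. They included Cox7b2, Atp5g3 and Atp5o in all 3 comparisons and Sdhd at p10 and for matched days. Cox7b2 differed by 0.98 at p10 (SE 0.34, limma adjusted p = 0.114), by 0.85 at p20 (adjusted p = 0.224) and by 1.09 for matched days (adjusted p = 0.0984).

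That model takes its spread partly from the p0 libraries. Fitted over the 8 libraries of p10 and p20, an alternative chosen after seeing the data, it called 25 members higher and 2 lower at p10 (24.8% of all features higher) and 25 higher and 2 lower at p20 (18.6% higher). The lower ones were Atp5l (-0.32) and Atp5s (-0.56) at p10, and Cox6b2 (-0.32) and Cox7a1 (-0.30) at p20. For matched days it called 26 higher and 0 lower, against 22.7%. The difference between methods was not shown to change with passage: limma called 0 members and 0.0% of all features for the interaction, with 0 members and 405 of 11561 features at an unadjusted p under 0.05. With weights for library quality, 72 features were called, Cox6b2 among them.

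**Figure D4:**
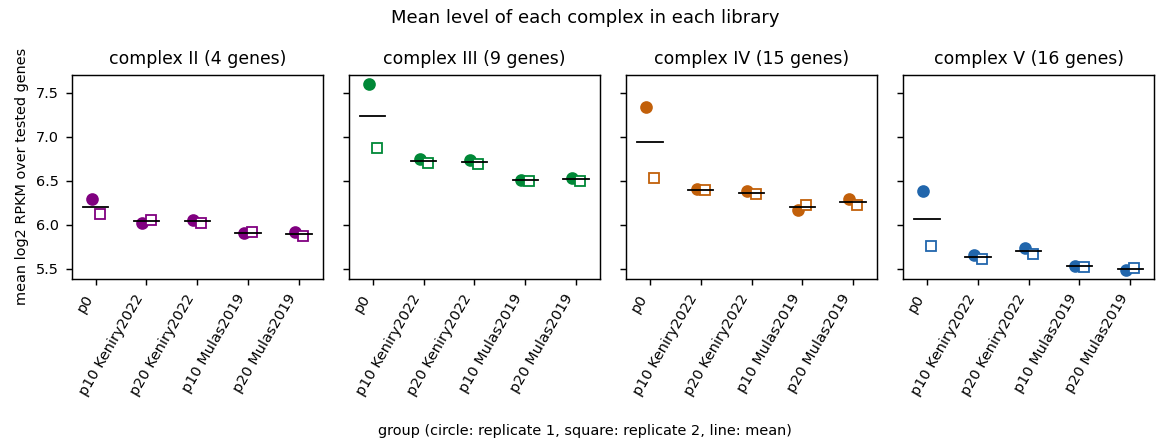
Mean log2 RPKM over the tested genes of each complex (y axis) in each group (x axis); circles are replicate 1, squares replicate 2 and lines the group mean. Keniry2022 lies above Mulas2019 at both passages in every complex, and p0 replicate 1 stands far above p0 replicate 2 except in complex II.

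Against p0, the members were lower under Mulas2019, and the size and the calls depended on the libraries and the scaling used. Of 44 tested members, 31 were called lower and 0 higher, with 22.0% of all features called lower and a member median of -0.55. With quality weights no member was called, and neither was any other of the 11561 features. With the length correction 27 were called lower and 0 higher, at a member median of -0.27 (4701 of 11354 features called in either direction). With recovered lengths these were 28 and 2, at -0.29 (4643 of 11560). With quantile normalisation they were 23 and 3, at -0.28 (4865 of 11561). Without any 1 of the Mulas2019 libraries fewer members were called, at a member median of -0.56 to -0.55. The 4 Mulas2019 libraries lay below both p0 libraries in 34 members, an order found in 26.7% of all features. With 1 p0 library left out, p0 is a single library whose spread is assumed to be that of the other groups. Without p0 replicate 1, 29 were called lower (21.3% of all features) with a median of -0.28. Without p0 replicate 2, 42 were called lower and 1 higher (36.2%) with a median of -0.89. Complex III had a median of -0.90 in the fit with both, complex IV -0.74, complex V -0.52 and complex II -0.33. Cox7b2 (-1.48, SE 0.29) and Uqcrb (-1.17, SE 0.26) had the widest differences, and Uqcrc1 (-0.004), Sdha (0.08) and Cox4i1 (-0.23) did not pass the test.

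Under Keniry2022 no member was called against p0 by limma, although 28 had an unadjusted p under 0.05 (34.8% of all features did), and 0.528% of all features were called lower. The member median was -0.41, and it was -0.20 with the length correction, -0.22 with recovered lengths and -0.25 with quantile normalisation. Without p0 replicate 1, 8 members were called lower (3.72% of all features), with a median of -0.13. These were Atp5c1, Atp5j2, Cox7a1, Cox6b1, Uqcrc2, Atp5l, Cox7a2 and Cox7b. Without p0 replicate 2, 42 were called lower and 1 higher (34.2% of all features lower) with a median of -0.74. All 4 Keniry2022 libraries lay below both p0 libraries in 28 members and in 19.3% of all features. The comparisons of each method with p0 share the same p0 libraries.

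The p0 libraries were far apart in these genes. In 43 of 44 tested members p0 replicate 1 was above replicate 2, with a median log2 difference of 0.66, against 0.02 over all features. Sdha was the exception, at 6.15 and 6.55. Differences above 0.5 were found in 29 members (65.9%) and in 16.7% of all features. They moved with exon length: the median was 0.78 in 15 members shorter than 1000 bases, 0.70 in 15 of 1000 to 2000 bases and 0.42 in 14 that were longer. Over all features these medians were 0.56, 0.40 and -0.10. Spearman's rho between length and this difference was -0.45 over the 44 members and -0.58 over 11653 features, all within the same pair of libraries. Members were short, with a median of 1325 bases against 3437.

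The difference between methods moved with length over all features, and less so over the members. The median difference was 0.13 for features shorter than 1000 bases, 0.11 from 1000 to 2000 and -0.03 above, with rho = -0.28 over 11653 features. Over the 44 members the medians were 0.19, 0.16 and 0.20, with rho = 0.09. Among the 14 members of 2000 bases or more, 10 were called higher under Keniry2022 and every value lay between 0.06 and 0.35. Of all features of that length, 21.9% were called higher. The part of fragment length or RNA quality in these differences was not tested.

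**Figure D5:**
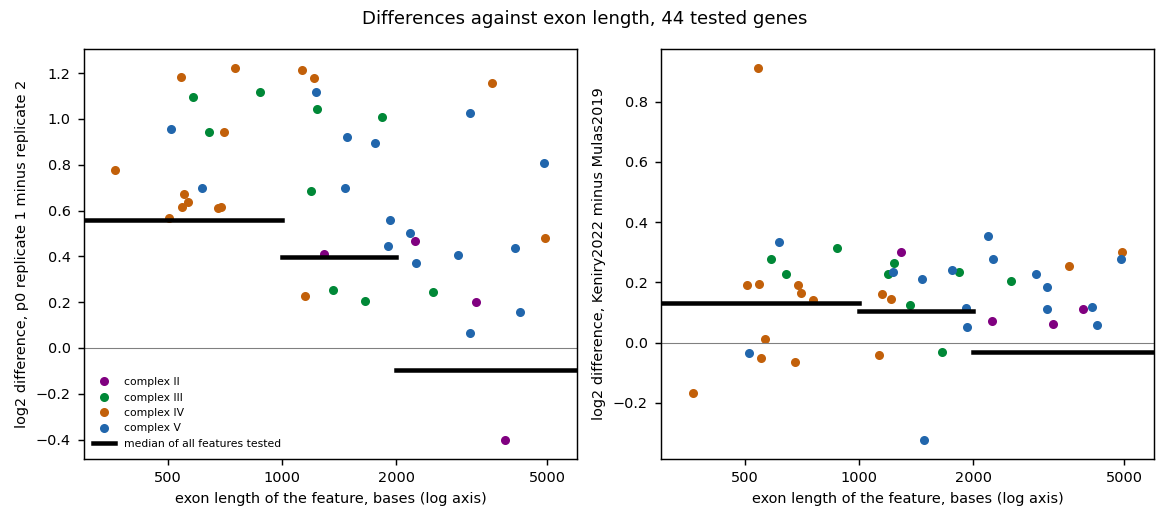
Log2 difference (y axes) against exon length in bases (x axes, log scale) for the 44 tested genes, left between the p0 libraries and right between the methods; black bars are medians of all tested features in 3 length classes. On the left the points lie above the bar of their class apart from Sdha, Uqcrc1, Cox7a2l and Uqcrfs1, and on the right the longer genes stay above 0 while the bar for long features is at -0.03.

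Genes that serve these complexes were counted in lists, to be read against the 25.9% of all features called higher, the 25.5% called lower and the median of -0.003. Of 40 tested assembly factors of complexes II to V, 16 were called higher and 2 lower under Keniry2022, with a median of 0.13; with quantile normalisation these were 15 and 3, and with the length correction 9 and 3. The widest were 1810063B05Rik (0.38), 2900053A13Rik (0.36) and 2010305A19Rik (0.35) among those higher. Fam36a (Cox20, -0.35), which helps to mature a mitochondrially encoded subunit of complex IV, and Higd1a (-0.30) were lower. Tmem70, needed for complex V, was higher (0.21) but not with either length correction. Of 19 genes of electron delivery to ubiquinone and its synthesis, 7 were called higher and 2 lower (median 0.05): Coq7 (0.35), Gpd2 (0.31) and Pdss1 (0.30) were higher and Coq2 (-0.49) was lower. Of 14 genes of the tricarboxylic acid cycle, 6 were called higher and 1 lower (median 0.04), with Sucla2 at 0.45, Dld at 0.38, Fh1 at 0.23 and Dlst at -0.10. With quantile normalisation this list turned to 2 higher and 6 lower (median -0.07), so no direction is given for it. The ubiquinone list had 8 higher and 2 lower under the same normalisation.

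Regulators of respiratory genes formed a further list. Of 15 tested, 5 were called higher and 1 lower, with a median of 0.11, near the share of all features called higher. With the length correction 8 were called higher and 0 lower, and with quantile normalisation 4 and 1. Tfb2m, a mitochondrial transcription factor, was at 1.61 ± 0.037 under Keniry2022 and 1.02 ± 0.17 under Mulas2019 (SD, n = 4), the widest difference of the list at 0.59 (SE 0.091, limma adjusted p = 0.000529). Tfam, which packages mitochondrial DNA, differed by 0.13, Yy1 by 0.12 and 1110002N22Rik by 0.47, and Esrra, a partner of PGC-1 coactivators, was lower (-0.15, limma adjusted p = 0.0496). Tfam, Yy1 and Esrra lost their call with quantile normalisation. Genes of complexes IV and V whose names fall outside the rule were also examined. Of 4 tested, 3 were called higher, namely Ndufa4 of complex IV (0.22), Usmg5 of complex V (0.36) and 2010107E04Rik of complex V (0.22). The other, Atpif1 (0.14), was not called (limma adjusted p = 0.0702). Atpif1 is an inhibitor of ATP synthase rather than a subunit, and it is also counted among the assembly factors. With either length correction or quantile normalisation only Usmg5 was called. The 4 genes, Atpif1 included, had a median of -0.98 between Mulas2019 and p0, where all 4 were called lower.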

How the data were processed

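RNA-seq was made from 10 libraries of male mESCs in 5 groups of 2, grouped by their titles. The authors deposited 1 table of log2 values for 25965 features. The study's methods name trim_galore, HISAT2 on mm10 and SeqMonk for its single-end reads, whereas TopHat2 2.0.12 and bcl2fastq appear in the submitters' processing notes. Strand setting, annotation release and treatment of multiply aligned reads are, in the sources used here, not given. The table is named as log CPM, but the deposited log2 values are RPKM: the 6624 features without a read in any library have values that depend on exon length, as if 0 had been entered as 0.9 reads. Library totals were worked out from these floors. Reads and exon lengths came from a search for the smallest length at which all values are whole. The tolerance was 0.02 reads, widened with the largest count, and the largest deviation in a member was 0.0463 reads (Atp5b). A length was found for 11752 of 11753 features searched and all 50 members.

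Tests used limma 3.58.1 in R 4.3.3 on the deposited log2 values, with eBayes and an intensity trend, two-sided, Benjamini-Hochberg adjusted over all features, at a threshold of 0.05. Features with a log2 value above 0 in 50% of the libraries were tested, with no pseudocount. The methods were compared with p10 and p20 pooled (4 against 4, no block, p0 not fitted). Other comparisons used 1 model of 5 groups. The study itself used counts with voom, and a trend fit was used here because the deposited values are on a log2 scale. The fits were tested on simulated data. Features were matched to GENCODE vM21 (24607) and motifs sought in RefSeq promoters.

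Members and lists were chosen with earlier results of these data known. Named in full were the 4 Sdh genes, Cyc1, Cycs, the c subunit genes, the paralogue families, members failing the filter, up to 3 called genes per direction of each further list (mean log2 of 3 or more) and, in complexes III to V, up to 4 called members per direction with the largest difference and no overlap. Others named were chosen after their values were seen. Both lines were carried through every group, so libraries pair by line: deviations of replicate 1 correlated at 0.171 to 0.63 between groups other than p20 Keniry2022 and at -0.118 to -0.698 with it. Ddx3y showed the same split, so the numbers of that group appear crossed. The block was run both ways. Alternatives were other filters, scalings, a pseudocount of 1, quality weights, a block, length corrections and leaving out each library.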

Additional observations from a re-analysis of the deposited data

Results flagged for a closer look

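In 98 groups of 4 libraries tested for a single far value, 5 had one, and chance flags about 1 in 20. Sdhc was at 4.60 in p10 Keniry2022 replicate 1 and at 4.73 in the other Keniry2022 libraries. Cox6c was at 4.86 in p20 Keniry2022 replicate 2, with the others at 4.93 to 4.94. Atp5k was at 6.27 in p20 Keniry2022 replicate 1, with the others at 6.23. Cox7a2 was at 7.16 in p10 Mulas2019 replicate 1, with the others at 7.11 to 7.12. Cox7b2 was at 3.22 in p20 Mulas2019 replicate 1, with the others at 2.69 to 2.77.

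In 3 members the libraries of the methods stood in opposite order at p10 and p20. Cox6b2 differed by 0.22 at p10 and by -0.32 at p20, a change of -0.54 (limma adjusted p = 1.0 for the interaction). Atp5l differed by -0.32 and then by 0.25, a change of 0.57 (limma adjusted p = 1.0). Cycs differed by 0.46 and -0.15, a change of -0.61 that was not tested because the gene did not pass the filter.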

How the results depend on the processing

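Between the methods 31 members were called, where 6000 of 11654 features were called in either direction. The count moved to 20 with quantile normalisation (17 higher and 3 lower), where 5361 of 11654 features were called. In the model of all 10 libraries it was 1 (Cox7b2), where 8.65% of all features were called higher. It lay between 28 and 31 when each library was left out, with 5049 to 5659 features called. These calls held 1 lower member without p20 Keniry2022 replicate 1 (28 higher) and 1 without p10 Mulas2019 replicate 1 (30 higher). The count was 23 with the length correction (5525 of 11446 features) and 24 with recovered lengths (5461 of 11653). The replicate block gave 29 (5749 of 11654 features), as did the block with the p20 Keniry2022 numbers crossed (5780). Without the filter it was 29 (6281 of 25965 features), where Cox6a2 (-2.25) was called lower. The block, as numbered or crossed, ended the calls of Sdha and Atp5c1 and no other pooled call. The stricter filter (4663 of 8537 features), median centring (5978 of 11654), the pseudocount (6002 of 11654) and voom (6079 of 11653) each gave 31. Quality weights (6353 of 11654 features) or a passage term (6395) gave 32, in each case 31 higher and 1 lower.

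In the model of 5 groups, 0 members were called between the methods at p10, at p20 or for matched days. Quality weights gave 27, 25 and 20, of which 2, 2 and 0 were lower. Of 11561 features, 5880, 4079 and 4623 were then called in either direction. The length correction gave 2 higher at p10, 2 lower at p20 and 2 higher for matched days. Of 11354 features, 1829, 704 and 1433 were then called. Recovered lengths gave 4, 2 and 4 (1871, 782 and 1533 of 11560 features), of which 2, 2 and 1 were lower. A fit without p0 gave 27, 27 and 26 (5631, 4280 and 5060 of 11654 features). When each library was left out, members were called only without p0 replicate 1 or without p0 replicate 2. The member medians then stayed at 0.18, 0.19 and 0.18. The interaction had 1 call (Cox6b2) with quality weights, where 72 of 11561 features were called. Against p0, the 31 calls of Mulas2019 became 0 with quality weights and ranged from 13 to 43 when each library was left out, with 18, 17, 13 and 20 without p10 Mulas2019 replicate 1, p10 Mulas2019 replicate 2, p20 Mulas2019 replicate 1 and p20 Mulas2019 replicate 2. Those of Keniry2022, 0 in all, became 1 with quantile normalisation, 2 with the length correction, 4 with recovered lengths and 0 to 43 when each library was left out, with 8 without p0 replicate 1 and 43 without p0 replicate 2. The cause of these changes was not tested.

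The sign of a pooled log2 difference turned under quantile normalisation for Cox5b (-0.0601), Sdhc (-0.0153), Atp5c1 (-0.0366), Sdhb (-0.0455), Cox6a1 (-0.0215), Atp5l (0.0282), Cox7a2 (-0.0232), Atp5d (-0.0783), Atp5b (-0.0156), Uqcrfs1 (-0.011), Sdha (-0.0116) and Atp5a1 (-0.0219). It turned under the length correction for Cox5b (-0.0951), Atp5l (0.0201) and Atp5d (-0.0297), and with recovered lengths for Cox5b (-0.121) and Atp5d (-0.0117). When each library was left out, Cox5b ran from -0.0344 to 0.043, Atp5l from -0.1256 to 0.0455, Cox6b2 from -0.1357 to 0.0079 and Cox7c from -0.0747 to 0.0116. Sdha, Atp5c1, Cox8a and Uqcrfs1 lost their call without at least 1 of the libraries.

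The filter on length-scaled values left 6 members untested, at 0 to 136 reads. Cycs had 52 to 136 reads over 3404 bases and failed it, whereas the shorter Atp5l (511 bases) was tested at 70 to 207 reads.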
